A study of Mus musculus with 12 samples.

Results

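The main effect of ADU-S100 was measured across 12 tumors, of which 6 had received ADU-S100 and 6 had not. The 6 tumors given ADU-S100 were the 3 labelled ADU-S100 and the 3 labelled combination, and the 6 tumors not given it were the 3 labelled cyto-IL-15 and the 3 labelled HBSS. They were chosen by these labels alone, they make up all 12 samples of the series, and cyto-IL-15, given or not, was the second term of the model. All tumors were TRAMP-C2, a mouse prostate cancer line, grown under the skin of the flank in male C57BL/6J mice of 6 to 8 weeks and treated by injection into the tumor at about 200.0 mm3. ADU-S100 was given as 3 doses of 50 µg, cyto-IL-15 as 2 doses of 10 µg, the combination as both agents and HBSS, a salt buffer, as 3 doses of 50 µl, and every tumor was taken on day 6. The model has limits that the groups share, since a single cell line was used, each library is a whole piece of tumor with its blood, stroma and neighbouring tissue, and a single time point was taken 2 days after the last injection.

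ADU-S100 is a synthetic cyclic dinucleotide that binds STING, an adaptor on the endoplasmic reticulum that senses cyclic dinucleotides made by cGAS from DNA in the cytosol. Active STING recruits the kinase TBK1, which phosphorylates IRF3, and the cell then makes type I interferon. The interferon receptor signals through STAT factors and IRF9 to interferon-stimulated genes, many of which carry a DNA element made of GAAA repeats near their start. Cyto-IL-15 is interleukin-15, a growth factor for CD8+ T cells and for NK (natural killer) cells, joined to a lipid-carrying peptide that holds it on cell membranes.

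Total counts were 66085574 to 103700199 per tumor with ADU-S100 and 48772204 to 89374663 per tumor without it. Tumor 28LL of the combination group and tumor 13 of the cyto-IL-15 group stood apart from the rest. The correlation of their log2 levels with those of the other tumors, across the tested genes, was 0.899 to 0.958, against 0.970 to 0.994 among the other 10, and genes are not independent replicates. The list of 14 epithelial and prostate tumor markers was low, at 0.0138% to 0.0199% of counts with ADU-S100 and 0.0161% to 0.0782% without, the highest being tumor 13. Krt18, a keratin of simple epithelia and the member with the smallest p, had at most 0.302 CPM (counts scaled to a common library size with TMM factors) in tumors with ADU-S100 and at most 6.09 CPM, in tumor 13, in those without. Col1a1, a fibrillar collagen chain, had at least 3967 CPM with ADU-S100 and at least 5617 CPM without. Of 5 single values per tumor, none differed by ADU-S100 in an exact two-sided permutation test within cyto-IL-15 strata, whose smallest possible p was 0.005. The adjusted p-values, over these 5 values, were 0.744 for total counts, 0.744 for the mitochondrial share, 0.375 for the skeletal muscle fiber share, 0.744 for the red blood cell share and 0.865 for the keratinocyte share.

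Across the 20132 genes tested with edgeR, 200 genes were higher in tumors given ADU-S100 and 32 were lower, where a call needed a log2 fold change beyond 1 in either direction with a Benjamini-Hochberg adjusted p below 0.05 in the quasi-likelihood test. The 200 genes make up 0.993% and the 32 genes 0.159% of the genes tested. Counts of called list members below are to be read beside these shares. The mean level over the 12 tumors had a median of 18.4 CPM for the genes that rose and 0.468 CPM for those that fell. For all tested genes it was 10.6 CPM. These means include the tumors given ADU-S100, so the change itself raises the first value and lowers the second. The median log2 fold change was 2.36 for the genes that rose, -2.13 for those that fell and -0.01 for all tested genes. Of all tested genes 49.1% had a positive log2 fold change. In bulk tumors such as these, fewer cells of a type and less RNA per cell cannot be told apart. The cyto-IL-15 term of the same fit called no gene, with 1544 genes at an unadjusted p under 0.05, against 4256 such genes for ADU-S100.

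The 6 tumors with ADU-S100 lay wholly above the 6 without it at 382 genes, 1.9% of those tested, and wholly below them at 321 genes, 1.59%. Among the 200 genes called higher, 149 had no overlap between the groups, and among the 32 called lower, 20 had none. The 6 tumors given ADU-S100 differed in how far they lay above the others. Tumor 20L of the combination group was the lowest of the 6 ADU-S100 tumors at 120 of the 200 genes called higher, and tumor 28LL of the same group was the highest at 175 of them. In tumor 28LL the median of these 200 genes was 3.11 log2 units above the median of the tumors without ADU-S100, against 1.05 in tumor 20L and 1.37 to 1.94 in the other 4. Among the tumors not given ADU-S100 the same median lay between -0.13 and 0.09.

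**Figure D1:**
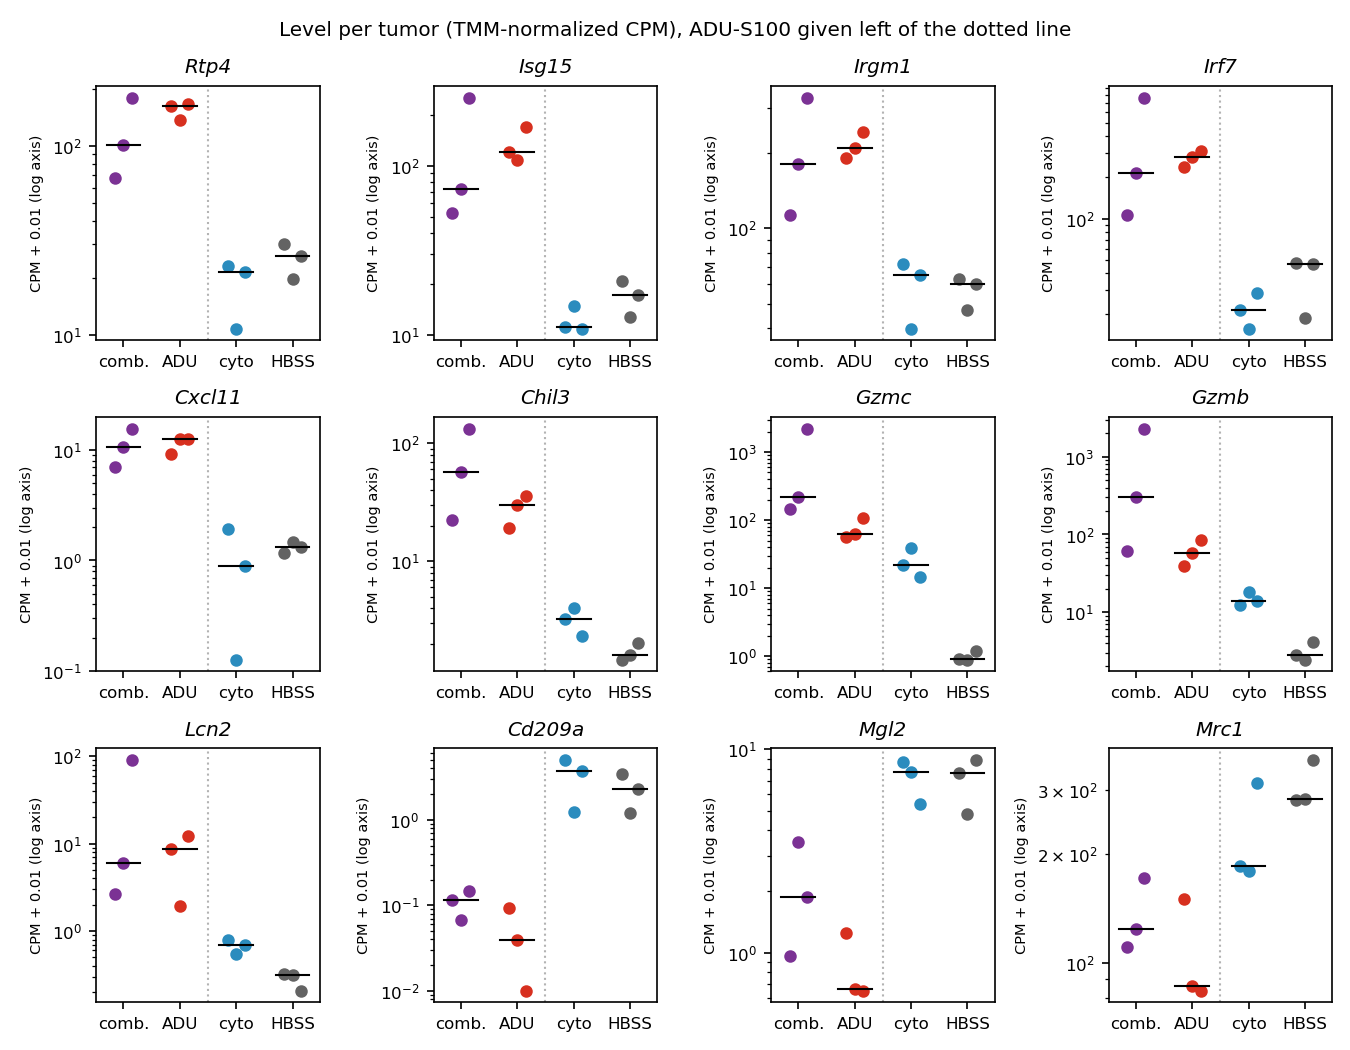
Level of 12 genes in every tumor, in TMM-normalized CPM plus 0.01 on a log axis, with the combination (comb.) and ADU-S100 (ADU) groups left of the dotted line and the cyto-IL-15 (cyto) and HBSS groups right of it. Each point is 1 tumor and each bar the median of 3; the first 9 genes were higher and the last 3 lower in all 6 tumors given ADU-S100 than in all 6 not given it.

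The pooled effect rests on 2 comparisons that share no tumor, ADU-S100 against HBSS (without cyto-IL-15) and the combination against cyto-IL-15 (with it). Without cyto-IL-15, 520 genes (2.75% of 18911) were higher and 147 (0.777%) lower in ADU-S100 tumors than in HBSS tumors. With cyto-IL-15, none of 18619 genes (0%) passed in either direction by edgeR, with 926 at an unadjusted p under 0.05, while DESeq2 called 97 higher and 15 lower in combination tumors. The biological coefficient of variation was 0.242 in the comparison without cyto-IL-15 and 0.522 in the one with it, which holds both tumors that stood apart. Of 506 genes called higher without cyto-IL-15 and tested in both comparisons, 493 (97.4%) also had a positive log2 fold change with cyto-IL-15, against 47.8% of the 18104 genes tested in both, and at 211 (41.7%) all 3 combination tumors lay above all 3 cyto-IL-15 tumors, against 6.15% of all. The median log2 fold change of these 506 genes was 2.05 without cyto-IL-15 and 2.08 with it. The genes called lower carried over less closely: of 129, 104 (80.6%) were negative with cyto-IL-15, against 52.2% of all genes, 16 (12.4%) did not overlap, against 6.71% of all, and the medians were -1.56 without cyto-IL-15 and -0.61 with it. All 194 pooled genes called higher and all 20 called lower that were tested in both comparisons had the same sign in each, a count that the pooled fit in part fixes.

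**Figure D2:**
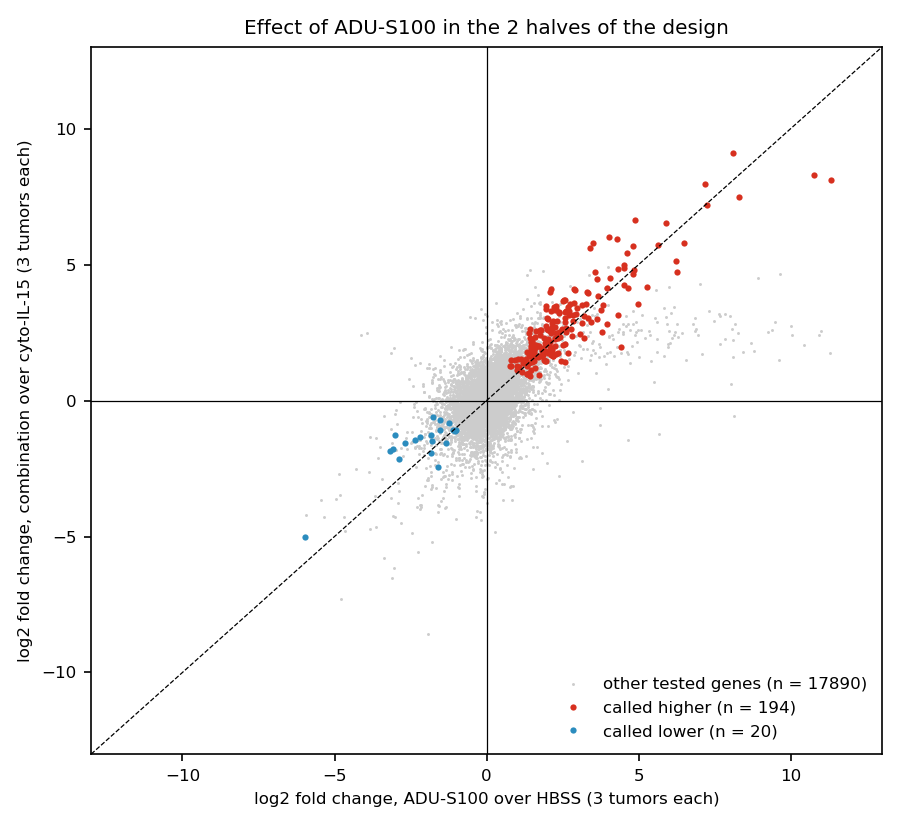
Log2 fold change of ADU-S100 over HBSS (x axis) and of the combination over cyto-IL-15 (y axis), 3 tumors per group, for each gene tested in both. Genes called higher (194, red) and lower (20, blue) in the fit of all 12 tumors lie in the upper right and lower left quadrants, and the dashed line marks equal values.

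Among the genes that rose were many interferon-stimulated genes. The gene lists here and below were chosen with earlier results of these data known, so their counts describe the data and are no test. Of 37 tested antiviral effector genes, which block steps of viral entry, replication or egress, 26 were called higher and none lower. All 37 had a positive log2 fold change, against 49.1% of all tested genes, and the median was 2.07. At 30 of them all 6 tumors with ADU-S100 lay above the others, against 1.9% of all tested genes. Without tumors 13 and 28LL, 25 were called. Rtp4, an interferon-induced receptor transporter protein, ranged from 67.4 to 179.6 CPM (median 149.9) in tumors given ADU-S100 and from 10.7 to 30.2 CPM (median 22.3) in those not given it. Every tumor given ADU-S100 was above the highest of the others, and the log2 fold change was 2.64 ± 0.26 (SE, adjusted p = 0.00226). Ifi44, another interferon-induced gene, had 28.7 to 127 CPM (median 80.7) with ADU-S100 and 3.78 to 13.4 CPM (median 7.84) without (log2 fold change 3.15 ± 0.33, adjusted p = 0.00226). Isg15 encodes a ubiquitin-like protein that is attached to other proteins after interferon exposure. It had 52.8 to 253 CPM (median 114) with ADU-S100 and 10.8 to 20.7 CPM (median 13.8) without, at a log2 fold change of 3.17 ± 0.36 (adjusted p = 0.00301).

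The most abundant antiviral genes of the naming rule moved by less. Bst2, or tetherin, which holds budding virus at the cell surface, had 311 to 574 CPM (median 486) with ADU-S100 and 79.2 to 178 CPM (median 137) without (log2 fold change 1.76 ± 0.18, adjusted p = 0.00226). Lgals3bp, a secreted galectin-binding glycoprotein, had 319 to 695 CPM with ADU-S100 and 109 to 189 CPM without (1.62 ± 0.20, adjusted p = 0.00619). Neither gene overlapped between the groups. Xaf1, an interferon-induced pro-apoptotic protein, rose by 1.96 ± 0.21 and Oasl2, of the 2′-5′-oligoadenylate synthetase family, by 2.01 ± 0.24 log2 units (adjusted p = 0.00235 and 0.00426). The oligoadenylate synthetases Oas1a, Oas1b, Oas1g, Oas2 and Oas3 were called higher too, and Oas1a, chosen after its values were seen, had 39.2 to 143 CPM with ADU-S100 and 8.84 to 22.3 CPM without.

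Of 19 interferon-inducible GTPases, proteins that attack the vacuoles of intracellular microbes, 14 were called higher and none lower, with a median log2 fold change of 1.81 and 16 genes without overlap. Of all tested genes 0.993% were called higher, and at 1.9% all 6 tumors with ADU-S100 lay above the others. Irgm1 had 113 to 331 CPM (median 200.3) with ADU-S100 and 39.8 to 72.3 CPM (median 61.4) without, at a log2 fold change of 1.87 ± 0.24 (adjusted p = 0.00621). Igtp (2.12 ± 0.29) and the guanylate-binding protein Gbp3 (1.99 ± 0.31) rose by similar amounts. The list median was 1.82 without cyto-IL-15 and 1.83 with it. The number of GTPases called was 6 to 17 as each tumor was left out in turn and 13 without tumors 13 and 28LL.

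The genes that carry the interferon signal rose in part. Of 19 interferon signaling genes 5 were called higher, among them Irf7, Irf9, Stat2 and Usp18, and none lower, with a list median of 0.63. Irf7, the factor that amplifies interferon production, had 106 to 769 CPM (median 259) with ADU-S100 and 15.6 to 47.5 CPM (median 24.8) without (3.47 ± 0.49, adjusted p = 0.00746). Irf9, a DNA-binding partner of STAT2, had 60.8 to 114 CPM with ADU-S100 and 31.8 to 48.0 CPM without (1.15 ± 0.15, adjusted p = 0.00621), so that a small change stood clear of a small spread. Usp18, which removes ISG15 and damps the receptor, rose by 2.54 ± 0.39 (adjusted p = 0.0120). Stat2, chosen after its values were seen, rose by 1.64 ± 0.26 (adjusted p = 0.0135).

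Among 20 tested nucleic acid sensing genes 4 were called higher, Dhx58, Zbp1, Ifi204 and Ifi205, and none lower, with a median of 0.52. Dhx58, or LGP2, a helicase that modulates RNA sensing, had 31.6 to 112 CPM with ADU-S100 and 10.1 to 22.1 CPM without (2.10 ± 0.28, adjusted p = 0.00621). Zbp1, a sensor of left-handed nucleic acid, rose by 2.26 ± 0.33 (adjusted p = 0.00966), and Ifi204, a DNA sensor of the interferon-inducible 200 family, by 1.75 ± 0.32 (adjusted p = 0.0241). The other 16 did not pass.

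Sequences near the start of the genes that rose were read from the RefSeq promoter table of GRCm38.p6, which runs from 250 bases before to 50 bases after each start, and 140 of the 200 genes called higher had an entry. The interferon-stimulated response element was searched as GAAANNGAAA on both strands. It was present at 38 of these 140 genes (27.1%), at 3.86% of the 13121 tested genes with an entry and at 3.99% of all 27025 genes of the table. The STAT site TTCNNNGAA was at 15.7% of the genes called higher and 8.41% of tested genes, and the kappaB motif, by its name, at 11.4% and 12.4%. The response element match overlapped a STAT site or kappaB match at 2 of the genes called higher. Of 16 genes called lower with an entry, 2 (12.5%) held the response element, 1 (6.25%) the STAT site and none the kappaB motif. Since the genes were called before the motifs were counted, these shares describe the called genes and are no test, and a match is a description, not a site.

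The following stretches are shown because they hold the response element in named genes of different roles, with all matches before the start in capitals and 25 bases or fewer on either side, read 5′ to 3′ on the strand of the gene.
Isg15: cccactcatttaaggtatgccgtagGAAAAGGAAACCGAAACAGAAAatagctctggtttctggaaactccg
Bst2: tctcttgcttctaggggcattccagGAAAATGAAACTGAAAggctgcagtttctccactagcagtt
Irgm1: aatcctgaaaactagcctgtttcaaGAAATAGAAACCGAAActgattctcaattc
Igtp: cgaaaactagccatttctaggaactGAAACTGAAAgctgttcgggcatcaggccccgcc
Gbp3: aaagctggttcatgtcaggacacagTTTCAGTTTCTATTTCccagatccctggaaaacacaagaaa
H2-T22: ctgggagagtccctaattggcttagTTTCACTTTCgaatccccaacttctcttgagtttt
Cxcl10: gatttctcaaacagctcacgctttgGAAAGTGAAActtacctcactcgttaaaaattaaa

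In GRCm38.p6 the Isg15 stretch is chr4:156200850-156200921 (minus strand) and its first match begins 78 bases before the start. Bst2 is chr8:71537562-71537627 (minus strand, 130 bases before), Irgm1 is chr11:48871421-48871475 (minus strand, 30 bases before) and Igtp is chr11:58199497-58199555 (plus strand, 34 bases before). Gbp3 is chr3:142559974-142560039 (plus strand, 45 bases before), H2-T22 is chr17:36042899-36042958 (minus strand, 191 bases before) and Cxcl10 is chr5:92349068-92349127 (minus strand, 213 bases before). Isg15 held 3 overlapping matches in a row and Bst2, Irgm1 and Gbp3 held 2 each. In Gbp3 and H2-T22 the match lies on the opposite strand, so that the capitals read TTTC.

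Many genes that rose lie beside each other. Of the 200 called higher, 80 (40.0%) had another called higher within 100 kb, against 4.13% of all tested genes. All 6 tested genes of the granzyme stretch chr14:56117619-56262260 (build GRCm38) were called, from Gzme to Gzmb. The Oas stretch chr5:120730333-120907521 held 5 called of 8 tested genes, and 2 guanylate-binding protein stretches, chr3:142493978-142638008 and chr5:105115767-105346472, held 4 of 5 and 4 of 7. The Slfn stretch chr11:83002158-83190216 held 5 of 7 and the Ly6 stretch chr15:74994877-75135128 held 5 of 6. Genes in such stretches are close copies, and how the authors counted reads that fit several copies is not given in the sources used here, so the split among neighbours is uncertain.

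Interferons themselves were low. Ifnb1, the first type I interferon made after STING activation, had 0.0290 to 0.344 CPM (median 0.123) with ADU-S100 and 0 to 0.0964 CPM (median 0.00547) without, which overlapped and did not pass (log2 fold change 3.06 ± 0.96, adjusted p = 0.108). Ifng, the type II interferon of NK and T cells, had 1.11 to 10.4 CPM (median 2.11) with ADU-S100 and 0.281 to 1.52 CPM (median 0.468) without (2.30 ± 0.48, adjusted p = 0.0387), with 1 gene called of the 8 tested interferons and receptors. The call of Ifng held in 2 of the 12 fits that each left out a tumor.

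Chemokines moved unevenly. Of 27 tested, 5 were called higher (Ccl4, Ccl7, Ccl11, Cxcl10 and Cxcl11) and Ccl17 lower, with a list median of 1.13. Cxcl11, which attracts T and NK cells through CXCR3, had 6.99 to 15.6 CPM with ADU-S100 and 0.116 to 1.91 CPM without (3.32 ± 0.49, adjusted p = 0.00966). Cxcl10, a ligand of the same receptor, had 152 to 307 CPM (median 251) with ADU-S100 and 11.4 to 110.1 CPM (median 72.3) without (1.85 ± 0.40, adjusted p = 0.0455). Ccl7, which attracts monocytes, had 89.1 to 277 CPM with ADU-S100 and 22.8 to 52.1 CPM without (2.06 ± 0.28, adjusted p = 0.00621). The related monocyte chemokine Ccl2 was abundant and did not overlap, at 234 to 350.3 CPM with ADU-S100 and 31.5 to 221 CPM without, yet did not pass (0.97 ± 0.34, adjusted p = 0.139). Ccl5 (1.29 ± 0.45, adjusted p = 0.138) and the neutrophil chemokine Cxcl1 (1.07 ± 0.31, adjusted p = 0.0883) did not pass either. Without tumors 13 and 28LL, 10 chemokines were called higher, and 2 to 10 were as each tumor was left out, with the most without combination tumor 20L.

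Of 20 cytokines only Tnf was called. It had 5.96 to 25.6 CPM (median 9.20) with ADU-S100 and 1.87 to 3.93 CPM (median 3.38) without (1.86 ± 0.36, adjusted p = 0.0296). Il6 (2.40 ± 0.72, adjusted p = 0.0987), Il1b (1.31 ± 0.71, adjusted p = 0.311) and Csf2 (1.00 ± 0.71, adjusted p = 0.454) did not pass. For Il1b the tumor that stood apart carried the value, since 28LL had 79.8 CPM and the other 5 ADU-S100 tumors had 4.60 to 8.00 CPM. None of 18 NF-kappaB targets and feedback genes was called, with a median of 0.27, and Zc3h12a, an RNase that restrains inflammation, passed the adjusted p (0.0406) at a log2 fold change of 0.62 ± 0.13.

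Many markers of infiltrating monocytes rose. Of 17 genes 9 were called higher and none lower, 15 had a positive log2 fold change, and the median was 2.68. Of all tested genes 0.993% were called higher and 49.1% had a positive log2 fold change. The summed counts of the list overlapped, at 0.115% to 0.362% of each library with ADU-S100 and 0.0901% to 0.191% without. The number called was 3 to 10 as each tumor was left out, lowest without ADU-S100 tumor 22LR or HBSS tumor 22LL, 10 without tumors 13 and 28LL, and 1 with the muscle fiber level as a covariate. Chil3, a chitinase-like protein of monocytes and macrophages, had the smallest p of all genes. Its levels were 19.0, 29.8 and 36.1 CPM in the ADU-S100 tumors and 22.4, 57.0 and 133 CPM in the combination tumors, against 3.20, 3.96 and 2.31 CPM in the cyto-IL-15 tumors and 1.45, 1.61 and 2.02 CPM in the HBSS tumors. The lowest ADU-S100 tumor was well above the highest of the others, and the log2 fold change was 4.28 ± 0.40 (adjusted p = 0.00226). Plac8 had 99.9 to 517 CPM with ADU-S100 and 12.2 to 26.8 CPM without (3.22 ± 0.41, adjusted p = 0.00621), and Cd300e, a receptor of non-classical monocytes, had 2.66 to 7.87 CPM with ADU-S100 and 0.0332 to 0.748 CPM without (4.40 ± 0.58, adjusted p = 0.00621). Ly6c2, the classical monocyte marker, and Nos2, the inducible nitric oxide synthase, both chosen after their values were seen, rose by 3.63 ± 0.70 and 2.79 ± 0.46 (adjusted p = 0.0296 and 0.0155). Trem3, a myeloid receptor, had 1.21 to 4.78 CPM with ADU-S100 and 0.130 to 0.355 CPM without (3.06 ± 0.33, adjusted p = 0.00235).

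Several neutrophil genes rose. Of 19 tested, 7 were called higher and none lower, with a median of 3.09 and 5 without overlap. The shares over all tested genes were 0.993% called higher and 1.9% with all 6 tumors given ADU-S100 above the others. The summed counts of the list overlapped, at 0.0707% to 0.102% of each library with ADU-S100 and 0.0160% to 0.110% without. The number called ran from 0 to 8 as each tumor was left out and was 10 without tumors 13 and 28LL. Lcn2, an iron-scavenging granule protein, had 1.94 to 91.9 CPM (median 7.37) with ADU-S100 and 0.197 to 0.771 CPM (median 0.420) without (5.25 ± 0.87, adjusted p = 0.0158). Mmp8, the neutrophil collagenase, had 2.04 to 19.3 CPM with ADU-S100 and 0.0976 to 1.01 CPM without (4.69 ± 0.76, adjusted p = 0.0138). S100a8, a calcium-binding alarmin, rose by 4.36 ± 0.75 (adjusted p = 0.0174). The highest value of Lcn2, Mmp8 and S100a8 was that of tumor 28LL in each case.

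**Figure D3:**
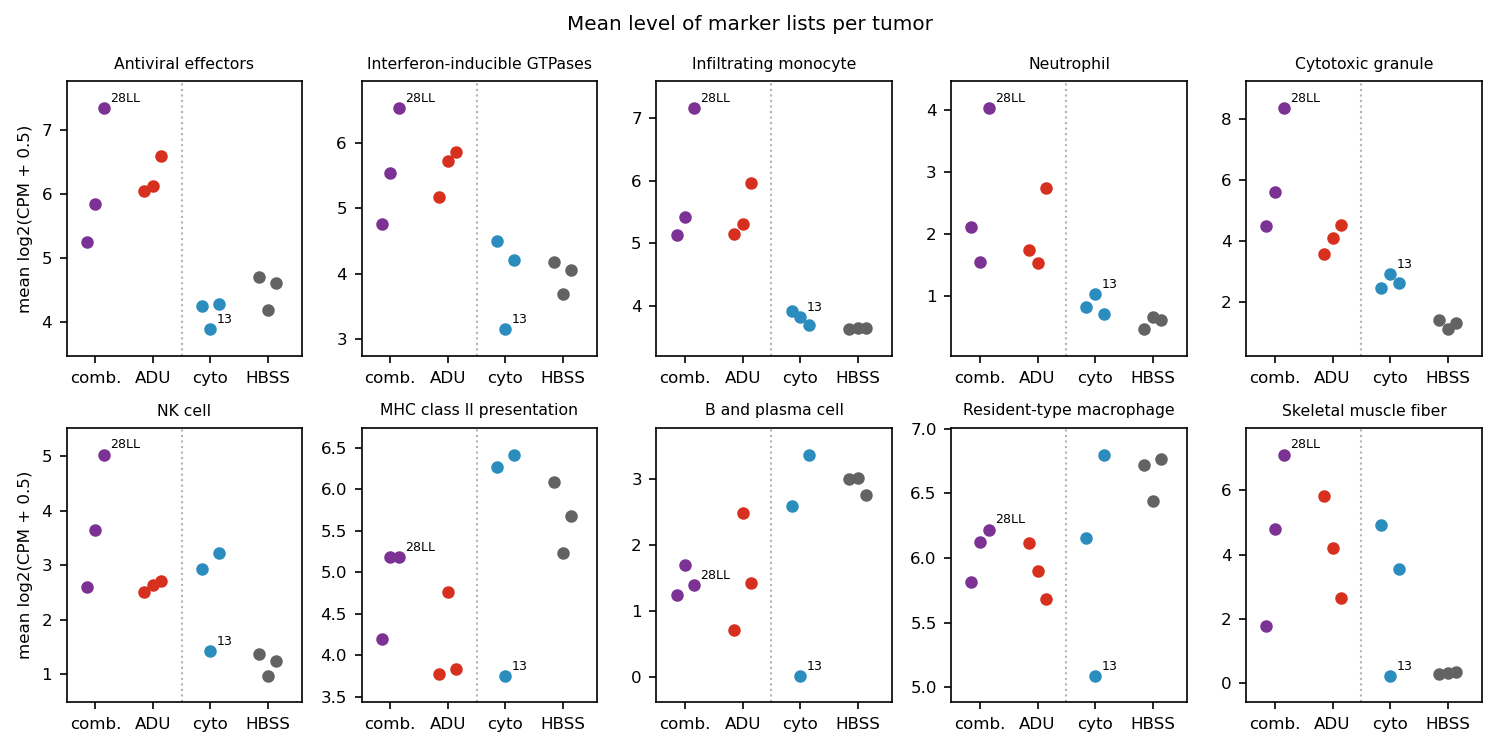
Mean log2(CPM + 0.5) of the members of 10 marker lists in each tumor, with the combination (comb.) and ADU-S100 (ADU) groups left of the dotted line and the cyto-IL-15 (cyto) and HBSS groups right of it; each point is 1 tumor, and tumors 13 and 28LL are marked. The antiviral, GTPase, monocyte, neutrophil and cytotoxic granule levels do not overlap across the line, while the NK cell, B and plasma cell, macrophage and muscle levels do.

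Cytotoxic granule genes had large fold changes. Of 16 tested, 10 were called higher and none lower, against 0.993% of all tested genes called higher, with a median of 3.23. The cyto-IL-15 term of the same fit had a median of 2.46 over this list, with none called. The number called was 3 to 14 as each tumor was left out, lowest without HBSS tumor 22LL and highest without combination tumor 20L, 10 without tumors 13 and 28LL, and 0 with the muscle fiber level as a covariate. Gzmc, a granzyme of activated killer cells, had 57.0, 61.4 and 106 CPM in the ADU-S100 tumors and 143, 216 and 2210.3 CPM in the combination tumors, against 21.8, 38.7 and 14.5 CPM in the cyto-IL-15 tumors and 0.911, 0.871 and 1.19 CPM in the HBSS tumors. The groups were thus ordered combination, ADU-S100, cyto-IL-15, HBSS with no overlap between neighbours, and the pooled log2 fold change was 5.64 ± 0.72 (adjusted p = 0.00621). Gzmb, which cleaves caspases in target cells, had 39.3, 57.2 and 85.2 CPM in the ADU-S100 tumors and 61.2, 306 and 2307 CPM in the combination tumors, against 12.5, 18.2 and 14.0 CPM in the cyto-IL-15 tumors and 2.77, 2.43 and 4.09 CPM in the HBSS tumors (5.10 ± 0.78, adjusted p = 0.0120). Gzma (4.69 ± 0.65, adjusted p = 0.00710) and Prf1, the pore-forming perforin (4.13 ± 0.71, adjusted p = 0.0182), rose with overlap, since a cyto-IL-15 tumor reached 44.4 CPM for Gzma and 23.8 CPM for Prf1. Without tumors 13 and 28LL the log2 fold change was 3.83 for Gzma and 4.07 for Gzmb, both still called. The neighbouring Gzmd, Gzme, Gzmf and Gzmg had fitted changes of 7.70 to 8.86, and as their median without ADU-S100 was 0.0130 to 0.0554 CPM these sizes rest on few reads there, tumor 13 having 3.86 to 11.2 CPM.

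Of 22 NK cell genes 3 were called higher (Klrg1, Klrb1c and Klrd1) and none lower, with a median of 1.73 and no gene free of overlap. This count was unstable, with 15 called higher without combination tumor 20L, 6 without cyto-IL-15 tumor 13, 1 without any other single tumor, 7 higher and 1 lower without tumors 13 and 28LL, 18 by DESeq2 and 0 with the muscle fiber level as a covariate. Klrg1, a receptor of mature NK cells and effector T cells, had 4.55 to 181 CPM (median 9.65) with ADU-S100 and 0.335 to 6.39 CPM (median 1.81) without (4.03 ± 0.63, adjusted p = 0.0123). The mean log2 level of the NK list was 2.502 to 5.03 with ADU-S100 and 0.97 to 3.22 without, and the highest value without it was a cyto-IL-15 tumor. The summed counts of the list were 0.0182% to 0.171% of each library with ADU-S100 and 0.00584% to 0.0290% without, and no NK marker was at 0 in all 6 tumors of a group. In the comparison without cyto-IL-15, 19 of the 22 were called higher. The rise was not particular to ADU-S100, since the cyto-IL-15 term of the pooled fit had a median of 1.79 over the NK list, with none called. That term was 3.24 for Klrg1, 2.11 for Klrb1c and 1.84 for Klrd1, against 4.03, 2.12 and 1.90 for ADU-S100. Its median over the T cell list was 1.13. None of 20 T cell genes was called, with a median of 0.73, and none of 14 checkpoint and regulatory T cell genes, of which Tnfrsf9, the co-stimulatory receptor 4-1BB, came nearest at 47.6 to 382 CPM with ADU-S100 and 16.0 to 46.2 CPM without (2.17 ± 0.50, adjusted p = 0.0528).

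Genes of the MHC class I and class II pathways, which present antigen to CD8+ and CD4+ T cells, had opposite signs. All 20 MHC class I genes had a positive log2 fold change, against 49.1% of all tested genes, with a median of 1.21. At 12 of them all 6 tumors with ADU-S100 lay above the others, against 1.9% of all tested genes. Only H2-T22 and Tap1 were called, and 6 were called without tumors 13 and 28LL. As each tumor was left out the number was 0 to 8, with the most without cyto-IL-15 tumor 13 and none without any 1 of the HBSS tumors. H2-T22, a non-classical class I molecule, had 196 to 475 CPM with ADU-S100 and 59.4 to 165 CPM without (1.48 ± 0.25, adjusted p = 0.0174), and Tap1, a subunit of the peptide transporter, had 202 to 478 CPM with ADU-S100 and 45.5 to 159 CPM without (1.41 ± 0.30, adjusted p = 0.0426). All 11 MHC class II genes had a negative log2 fold change, where 49.1% of all tested genes had a positive one. Their median was -1.44, and none was called. H2-Aa, an alpha chain of the class II molecule, had 76.9, 182 and 67.9 CPM in the ADU-S100 tumors and 102, 312 and 252 CPM in the combination tumors, against 954, 86.2 and 1075 CPM in the cyto-IL-15 tumors and 759, 333 and 515 CPM in the HBSS tumors (-1.98 ± 0.54, adjusted p = 0.0759). The value of 86.2 CPM was that of tumor 13, whose class II mean level (3.75) was the lowest of all 12 tumors, and without tumors 13 and 28LL 9 of the 11 were called lower.

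Genes of B and plasma cells were lower in 17 of 18 cases by sign, where 49.1% of all tested genes had a positive log2 fold change. Their median was -0.97, and none was called with all 12 tumors, against 5 called lower without tumors 13 and 28LL. Cd79a, the signaling chain of the B cell receptor, had 0.568 to 1.74 CPM with ADU-S100 and 0.746 to 6.35 CPM without (-1.69 ± 0.47, adjusted p = 0.0826). The immunoglobulin variable segment Igkv12-44 was called lower and had 0 to 0.121 CPM with ADU-S100 and 0 to 13.0 CPM without (-7.02 ± 1.46, adjusted p = 0.0394). Such segments depend on which B cell clones a tumor holds, and Igkv12-44 was at 0 in tumor 13.

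Cd209a had the smallest p of the genes that fell. Cd209a, a C-type lectin of the DC-SIGN family, had 0.0842, 0.0290 and 0 CPM in the ADU-S100 tumors and 0.105, 0.0580 and 0.137 CPM in the combination tumors, against 5.05, 1.21 and 3.73 CPM in the cyto-IL-15 tumors and 3.38, 1.18 and 2.31 CPM in the HBSS tumors. All 6 tumors with ADU-S100 were below the lowest of the others, and the log2 fold change was -5.44 ± 0.64 (adjusted p = 0.00402). Mgl2, a galactose-type lectin of alternatively activated macrophages and dendritic cells, had 0.638 to 3.51 CPM (median 1.10) with ADU-S100 and 4.82 to 8.90 CPM (median 7.70) without (-2.43 ± 0.39, adjusted p = 0.0146). Mrc1, the mannose receptor, had 83.7 to 171 CPM (median 117) with ADU-S100 and 179 to 363 CPM (median 282) without (-1.14 ± 0.23, adjusted p = 0.0379). Lyz1, a lysozyme, had 0.793 to 2.52 CPM with ADU-S100 and 2.59 to 10.2 CPM without (-2.14 ± 0.41, adjusted p = 0.0293), although its close copy Lyz2 may share its reads.

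Further genes at low levels also fell. Retnla, a secreted product of alternatively activated macrophages, chosen after its values were seen, had 0 to 0.0550 CPM with ADU-S100 and 0.0829 to 1.02 CPM without (-4.62 ± 0.72, adjusted p = 0.0123). Cd209c, a second lectin beside Cd209a, had 0 to 0.0440 CPM with ADU-S100 and 0.121 to 0.407 CPM without, and Ccl17, a chemokine of dendritic cells and alternatively activated macrophages, 0.0968 to 0.508 CPM with ADU-S100 and 0.559 to 1.33 CPM without, both likewise chosen after their values were seen. None of these 3 genes overlapped between the groups.

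Few genes of the wider lists passed with all 12 tumors. Of 25 resident-type macrophage genes only Mrc1 was called, with a median of -0.40, and of 12 pan-macrophage genes only Lyz1, with a median of 0.12. Of 16 dendritic cell genes Cd209a alone was called, with a median of -0.33 and 3 positive values. Without tumors 13 and 28LL, 7 resident-type macrophage and 5 dendritic cell genes were called lower. Tumor 13 had the lowest resident-type macrophage level of all tumors (5.09), while the other tumors without ADU-S100 had 6.15 to 6.80 and the tumors with it 5.68 to 6.22.

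Of 14 complement genes 2 were called higher. Cfb, which forms the alternative-pathway convertase, and C5ar1, the C5a receptor, rose by 2.17 ± 0.47 and 1.15 ± 0.21 (adjusted p = 0.0462 and 0.0223). Among other genes of the naming rule that fell, Lrp6, a Wnt co-receptor, had 40.7 to 61.0 CPM with ADU-S100 and 74.1 to 202 CPM without (-1.09 ± 0.23, adjusted p = 0.0394), with no overlap. Zbtb37, a zinc finger gene, fell by 1.04 ± 0.21 log2 units and Npl, N-acetylneuraminate pyruvate lyase, by 1.05 ± 0.22 (adjusted p = 0.0349 and 0.0379), again with no overlap. Reps2, an endocytic adaptor, fell by 1.92 ± 0.34 (adjusted p = 0.0228). These calls were not stable, as Zbtb37 was called in 2 of the 12 leave-outs, Lrp6 in 3, Npl in 4 and Reps2 in 5. Tumor 13 had the highest level of Lrp6 and of Zbtb37. Without tumors 13 and 28LL the log2 fold changes of Lrp6 (-0.89) and Zbtb37 (-0.85) fell short of the threshold, while Npl and Reps2 were still called.

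Single genes of stress and cell cycle arrest rose. Cdkn1a, the cell cycle inhibitor p21, had 66.4 to 190.0 CPM (median 83.1) with ADU-S100 and 14.7 to 37.5 CPM (median 22.6) without (2.08 ± 0.31, adjusted p = 0.00980), yet it was the only 1 of 14 p53 targets called and their median was 0.19. Ddit3, or CHOP, of the integrated stress response, had 43.3 to 86.8 CPM with ADU-S100 and 20.3 to 33.9 CPM without (1.15 ± 0.18, adjusted p = 0.0123), and Hmox1, heme oxygenase, rose by 1.53 ± 0.29 (adjusted p = 0.0287), 2 of 11 genes in the list. Casp4, the inflammatory caspase-11 of mice, was the 1 gene called of 23 cell death genes (1.14 ± 0.23, adjusted p = 0.0360). None of 23 proliferation genes was called, with a median of 0.07, and none of 16 hypoxia and glycolysis genes, with a median of 0.39. Prl2c2, a proliferin, had 52.8, 41.5 and 57.6 CPM in the ADU-S100 tumors and 39.5, 11.03 and 15.4 CPM in the combination tumors, against 7.27 to 8.77 CPM in the cyto-IL-15 tumors and 7.86 to 11.3 CPM in the HBSS tumors (1.94 ± 0.32, adjusted p = 0.0146).

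Cck, the gene of the peptide cholecystokinin, and Htra4, a secreted serine protease, stand out among low genes and were chosen after their values were seen. Cck had 1.71, 1.01 and 2.82 CPM in the ADU-S100 tumors and 1.29, 0.203 and 2.36 CPM in the combination tumors, against at most 0.0193 CPM in the cyto-IL-15 tumors and at most 0.0134 CPM in the HBSS tumors (adjusted p = 0.00235). Htra4 had 0.660 to 1.26 CPM with ADU-S100 and 0.107 to 0.197 CPM without (2.56 ± 0.26, adjusted p = 0.00226). Both were called in each of the 12 fits that left out a tumor.

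Skeletal muscle fiber genes were higher by sign in the pooled fit, and some were called in the comparison without cyto-IL-15. All 28 muscle fiber genes had a positive log2 fold change, against 49.1% of all tested genes, with a median of 3.80. None was called with all 12 tumors and none was free of overlap, and no fiber marker was at 0 in all 6 tumors of a group. In ADU-S100 against HBSS tumors 13 of the 28 were called higher, with a median of 6.13, and in combination against cyto-IL-15 tumors none was called, with a median of 2.10. Actn3, an actin-binding protein of fast fibers, had 48.1, 12.4 and 16.1 CPM in the ADU-S100 tumors and 2.75, 17.1 and 143 CPM in the combination tumors, against 14.1, 1.26 and 2.501 CPM in the cyto-IL-15 tumors and 0.260, 0.375 and 0.492 CPM in the HBSS tumors (4.55 ± 1.08, adjusted p = 0.0570). The fiber share was 0.0166% to 0.766% of counts with ADU-S100 and 0.00659% to 0.159% without (exact permutation p = 0.075, adjusted p = 0.375). Fiber RNA was not particular to ADU-S100. The mean log2 level of the list was 4.93 and 3.54 in cyto-IL-15 tumors 9R and 20LL, above ADU-S100 tumor 22LR (2.65) and combination tumor 20L (1.78). It was 0.22 in tumor 13 and 0.29 to 0.35 in the HBSS tumors. The cyto-IL-15 term of the pooled fit had a median of 2.90 over the list. Of 11 muscle regeneration genes, Chrnd and Chrng, subunits of the acetylcholine receptor that denervated and immature fibers make, were called higher (3.14 ± 0.66 and 3.30 ± 0.69, adjusted p = 0.0394 and 0.0399), and 0 to 8 were as each tumor was left out, with the most without combination tumor 20L.

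As muscle RNA was higher by sign in tumors given ADU-S100, the fit was repeated with the mean log2 level of the 28 fiber genes as a further covariate, and 8 genes were then called higher and 3 lower. The median log2 fold change of the 200 genes called higher was 1.77 in that fit against 2.36 without the covariate, all 200 kept their sign and 196 had an unadjusted p under 0.05, while the median SE was 0.48 against 0.41. The 32 genes called lower had a median of -2.11 with the covariate and -2.13 without it. The 8 genes still called higher were Chil3, Rtp4, Bst2, Htra4, Ifi44, Cck, Xaf1 and Oasl2, and Cd209a was still called lower. Leaving the muscle genes themselves out of the table left 200 genes called higher, 198 of them as before, and 32 lower.

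**Figure D4:**
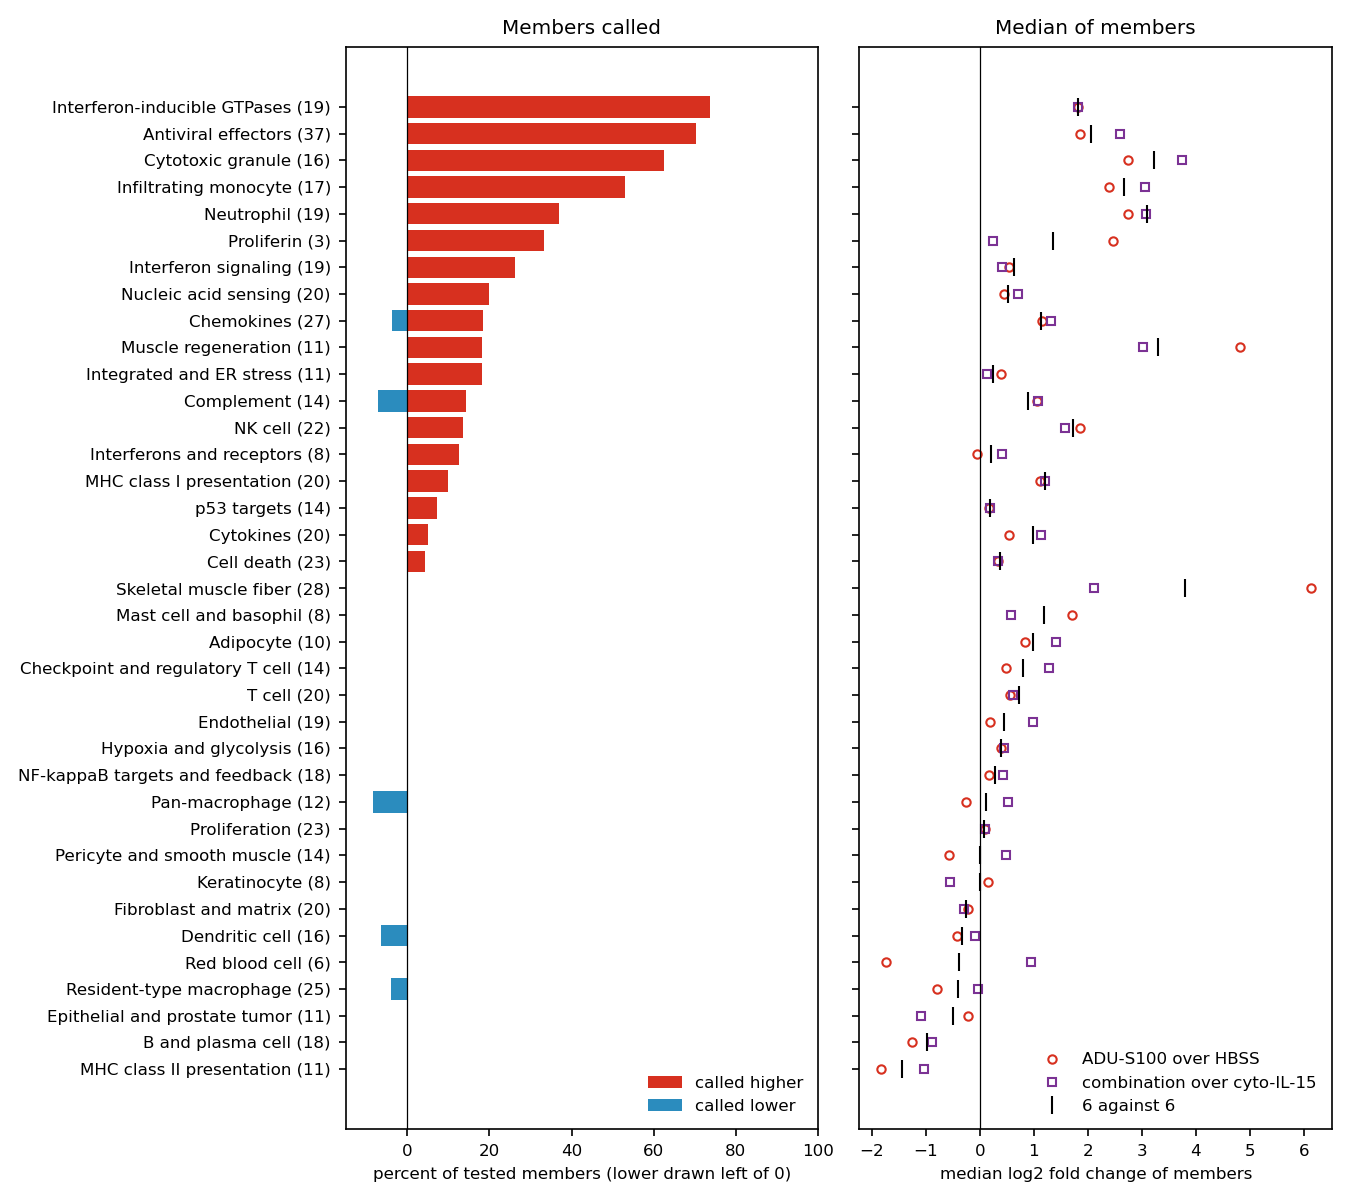
Share of tested members called higher (red) and called lower (blue, drawn left of 0) in the fit of all 12 tumors (left), and median log2 fold change of the members in each comparison and in the pooled fit (right), for 37 gene lists without set tests; the number of tested members is in parentheses. Interferon-inducible GTPases (14 of 19), antiviral effectors (26 of 37) and cytotoxic granule genes (10 of 16) had the highest shares, and muscle fiber genes the widest gap between the comparisons.

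Of the 37 lists, 18 held a gene called higher and 5 a gene called lower. No list held 104 of the 200 genes called higher and 27 of the 32 called lower. The lists with no called gene included fibroblast and matrix (20 genes, median -0.26), endothelial (19 genes, median 0.45), pericyte and smooth muscle (14 genes, median 0.01), adipocyte (10 genes, median 0.99), keratinocyte (8 tested genes, median -0.00), mast cell and basophil (8 tested genes, median 1.18), red blood cell (6 tested genes, median -0.40) and epithelial and prostate tumor (11 tested genes, median -0.51). Keratinocyte counts varied by tumor rather than by group, since Krt14 ranged from 0 to 15.9 CPM with ADU-S100 and from 0.0134 to 125 CPM without.

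Whether the effect of ADU-S100 differed with cyto-IL-15 was tested gene by gene as an interaction, and no gene passed by edgeR, with 461 at an unadjusted p under 0.05, while DESeq2 called 4 higher and 1 lower. The gene with the smallest p was Lyz2, the main macrophage lysozyme. It had 771, 663 and 699 CPM in the ADU-S100 tumors, against 1914, 1707 and 1826 CPM in the HBSS tumors, and 1133, 1471 and 1656 CPM in the combination tumors, against 1286, 1445 and 1749 CPM in the cyto-IL-15 tumors. Its log2 fold change was -1.35 without cyto-IL-15 and -0.06 with it (interaction 1.28, unadjusted p = 0.000371, adjusted p = 0.9997 by edgeR's quasi-likelihood test). Cd83, a marker of mature dendritic cells, had the same pattern at -2.33 without cyto-IL-15 and -0.07 with it (interaction 2.26, unadjusted p = 0.00063 by the same test). Spint1, a protease inhibitor of epithelia, had -0.16 without cyto-IL-15 and 1.43 with it, Ogdhl, a mitochondrial dehydrogenase subunit, -0.29 and -1.79, and Bend4 -0.81 and 0.83. None of these differences passed the adjustment.

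The number of calls depended on single tumors. Leaving out tumor 19, 22R or 22LL of the HBSS group left 81, 70 and 63 genes called higher and 10, 11 and 5 lower, and leaving out tumor 17LL, 18R or 22LR of the ADU-S100 group left 111, 91 and 75 higher and 9, 5 and 5 lower. Without tumor 9R, 13 or 20LL of the cyto-IL-15 group 105, 237 and 98 genes were higher and 17, 125 and 29 lower, and without tumor 20L, 22 or 28LL of the combination group 481, 171 and 165 were higher and 50, 19 and 27 lower. Without both tumors 13 and 28LL, 332 genes were higher and 194 lower, of which 189 and 29 were among those called with all 12. A set of 59 genes called higher and 4 called lower was called in all 12 leave-outs, the 4 being Cd209a, Cd209c, Retnla and Mgl2. Among the 59 were Chil3, Rtp4, Bst2, Isg15, Irgm1, Irf7, Cxcl11, Cdkn1a, Gzma, Gzmb and Gzmc. Cxcl10, Tap1, Ifng, Klrb1c and Klrd1 were called in only 2 of the 12 leave-outs, and Casp4 and Cfb in 1.

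**Figure D5:**
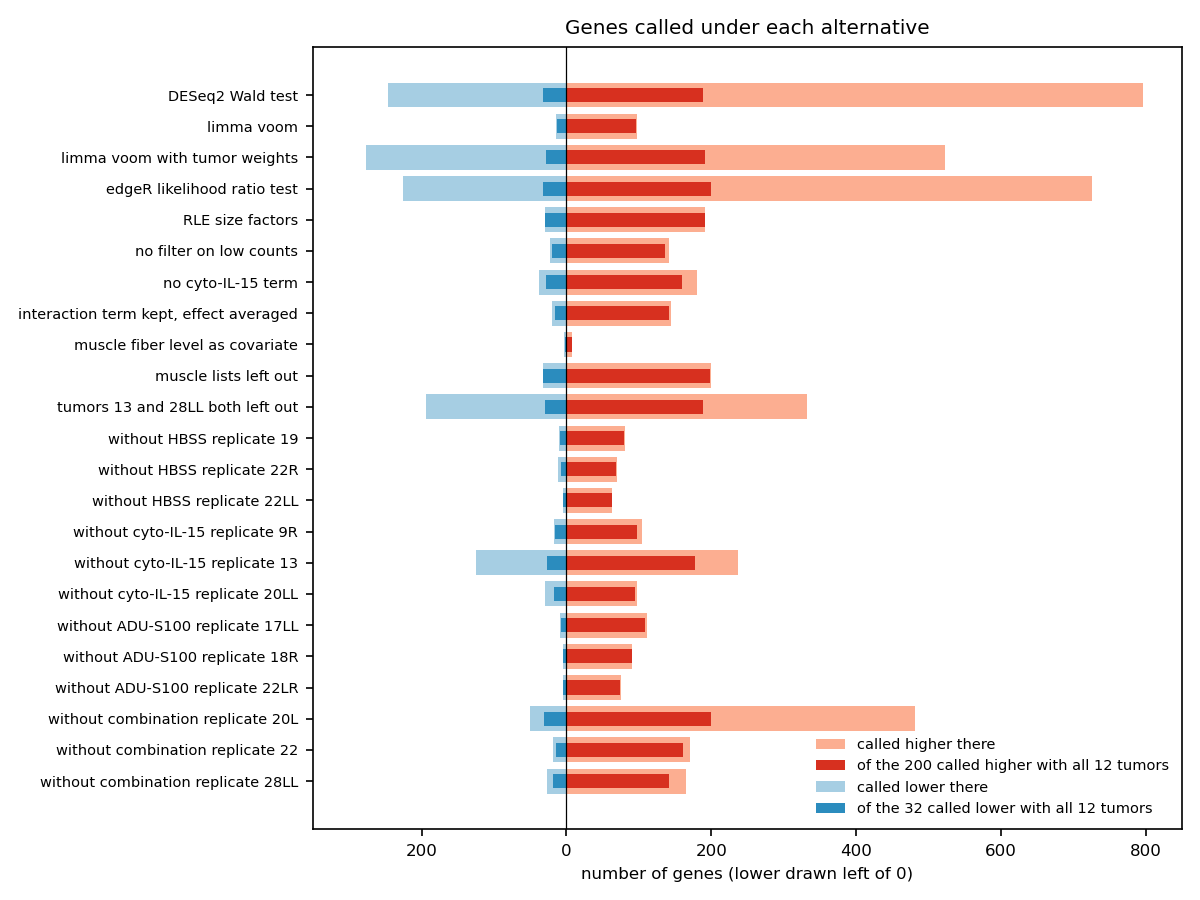
Number of genes called higher (right of 0) and lower (left of 0) under each alternative to the fit of all 12 tumors, with the pale bar for all genes called there and the dark bar for those also called with all 12 tumors. The dark bars reach 200 and 32 at most, and the muscle covariate leaves 8 and 2 of them.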

How the data were processed

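RNA was measured in 12 TRAMP-C2 tumors by sequencing. The authors deposited whole-number gene counts per tumor. The submitters' processing notes name STAR 2.5.2b, Subread 1.5.2 with featureCounts, Trimmomatic 0.36, bcl2fastq 2.20 and DESeq2, and build GRCm38. The strand setting and the treatment of reads that fit several genes are not given in the sources used here, so values of close copies and of overlapping or antisense genes are uncertain.

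Counts of 49315 identifiers were fitted with edgeR 4.0.16 in R 4.3.3. Genes were kept by filterByExpr over the 4 groups (minimum count 10, minimum total 15), libraries were scaled by TMM, and a robust quasi-likelihood model with a cyto-IL-15 and an ADU-S100 term was fitted to all 12 tumors (9 residual degrees of freedom). p-values were adjusted over all tested genes by the Benjamini-Hochberg method, and a call needed a log2 fold change beyond 1 in either direction with an adjusted p below 0.05. The same test was run for each comparison alone and for the interaction. The SE after each ± was derived from that test, as the absolute log2 fold change divided by the square root of its F statistic. Levels are CPM on TMM-scaled libraries, and list levels are means of log2(CPM + 0.5). Total counts were 48772204 to 103700199 per tumor, and the biological coefficient of variation in the pooled fit was 0.427. Nothing in the labels says that tumors came from separate cultures or batches, so the p-values measure the spread between these tumors only.

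Named genes were the 10 higher and 10 lower with the smallest p among those averaging at least 1 CPM, the 3 called members of each list with the smallest p (or else its member with the smallest p), cytokine and cytotoxic genes of a fixed list, the 5 called genes with the largest change in each direction at the same floor of 1 CPM, and the 5 with the smallest interaction p. Other genes are said to be chosen after their values were seen. Some genes that the rule names are not reported here. The members and the 37 lists (654 of 655 entries matched) were chosen with earlier results of these data known. Scripts were tested on simulated data. Alternatives were DESeq2 1.42.0, limma 3.58.1 voom with and without tumor weights, the likelihood ratio test, other size factors, no filter, other model terms, the muscle level as a covariate, no muscle genes, no fold threshold, leaving out tumors and a block for numbers shared by tumor codes.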

Additional observations from a re-analysis of the deposited data

How the results depend on the processing

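With all 12 tumors edgeR called 200 genes higher and 32 lower, and these numbers depended on the test. DESeq2 called 796 higher and 246 lower, limma voom 98 and 15, voom with tumor weights 523 and 276, and the edgeR likelihood ratio test 726 and 225. The fit with the muscle fiber level as a covariate called 8 higher and 3 lower, and leaving out tumors 13 and 28LL called 332 and 194. Averaging the effect over the interaction model left 20 lower, and dropping the fold threshold gave 84 lower. Leaving out 1 tumor gave 63 to 481 higher and 5 to 125 lower, and the cause of these shifts was not tested. In the alternatives read gene by gene, no named gene that was called there or with all 12 tumors changed sign. Sign changes of named genes called in neither fit were not counted. No scaling moved the median of all genes by over 0.1. Without cyto-IL-15, DESeq2 called 297 lower and no filter 304, and leaving out 1 tumor gave 243 to 507 higher and 63 to 117 lower. With cyto-IL-15, DESeq2 called 97 higher and 15 lower, and every leave-out called 0 by edgeR. For the interaction DESeq2 called 4 higher and 1 lower. The log2 difference in muscle fiber share was 1.54 to 2.92 as each tumor was left out. Depth limits genes under 1 CPM, which make up 31 of the 200 genes called higher and 18 of the 32 called lower. Some tumor codes share a number across groups (20LL and 20L, and 22R, 22LL, 22LR and 22), and the labels do not say what it marks. A fit with this number as a replicate block, chosen after seeing the data, had 2 residual degrees of freedom and called 44 genes higher and 14 lower, of which 26 and 4 were among the 200 and 32. All 200 and all 32 kept their sign there. Deviations from the group means of tumors with the same number correlated at -0.16 to 0.14 across genes (6 pairs). For 48 other pairs across groups the range was -0.36 to 0.36. With 6 pairs this cannot decide what the number marks, and the main fit treated the tumors as sharing only a number.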
